A study of Homo sapiens with 12 samples.

Results

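The genes described here make, move, sense and degrade prostaglandins: PLA2G4A, PTGS1, PTGS2, PTGES, PTGES2, PTGER2, PTGER4, HPGD, SLCO2A1 and ABCC4. They were chosen by symbol, and all 10 were on the array, with 22 of 54613 probe sets, among 19706 genes that had a single symbol. Ect1 cells, an epithelial line of the human ectocervix made immortal by papillomavirus genes, were grown to confluence without serum, in medium that held EGF and bovine pituitary extract. The cells then spent 10 h in medium with pooled human seminal plasma at 10% by volume, in medium with recombinant human TGFB3 at 5 ng/ml, or in medium alone as the control. Each group had 4 Affymetrix Human Genome U133 Plus 2.0 arrays, 1 for each biological replicate, and a replicate pooled the RNA of 4 wells. Ect1 is 1 immortalised line under culture, without the stroma or leukocytes of a cervix.

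Prostaglandins are lipid signals made from arachidonic acid. A phospholipase frees that acid from membranes, a cyclooxygenase turns it into prostaglandin H2, and terminal synthases turn that into prostaglandin E2 and its relatives, which act through G protein-coupled receptors and are taken up and oxidised by neighbouring cells. In the cervix, prostaglandin E2 is known for its part in inflammation and in the softening of the tissue before birth, and seminal plasma itself carries prostaglandins in large amounts.

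PTGS2 and PLA2G4A lie side by side on human chromosome 1, with no other protein-coding gene between them in RefSeq (0 found, beside the noncoding PACERR). The bases before their starts are shown because PTGS2 was the member that passed the test and PLA2G4A had the lowest log2 fold change of the 10 with either treatment. Both are from RefSeq on GRCh38.p14, 250 bases each, chr1:186680424-186680673 on the minus strand for PTGS2 and chr1:186828699-186828948 on the plus strand for PLA2G4A. Of 7 words searched on both strands, capitals mark those of 4 kinds. They are TTNCNNAA, which C/EBP factors can bind, and TGACG, the core of a cAMP response element. The others are CANNTG, the E-box, and TATAAA, the TATA box.
PTGS2: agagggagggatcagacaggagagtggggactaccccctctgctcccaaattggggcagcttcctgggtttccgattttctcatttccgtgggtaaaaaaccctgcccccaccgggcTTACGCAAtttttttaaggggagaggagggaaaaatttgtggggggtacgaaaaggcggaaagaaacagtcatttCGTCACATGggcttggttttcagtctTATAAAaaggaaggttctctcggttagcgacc
PLA2G4A: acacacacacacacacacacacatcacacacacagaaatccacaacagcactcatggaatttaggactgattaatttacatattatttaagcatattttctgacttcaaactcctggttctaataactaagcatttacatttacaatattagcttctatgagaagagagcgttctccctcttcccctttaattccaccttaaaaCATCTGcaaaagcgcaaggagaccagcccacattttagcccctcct
In PTGS2 the C/EBP word spans -133 to -126, the response element core -58 to -54 on the other strand, the E-box -55 to -50 and the TATA box -32 to -27, counted from the start. The core and the E-box share bases, so they form a single run of capitals. The PLA2G4A window held 1 of the 7 words, an E-box from -46 to -41. The PTGS2 window also held CAGAC, a SMAD word, from -238 to -234, and the NF-kappaB word at overlapping places from -225 to -214, both left in lower case, and neither window held the AP-1 word. Over 35116 RefSeq promoter windows of the same length, the C/EBP word was found in 33.2%, the response element core in 21.2%, the E-box in 61.8% and the TATA box in 10.7%. The shares were 38% for the SMAD word, 54.4% for the NF-kappaB word and 6.57% for the AP-1 word. Of the 10 genes, 9 had a RefSeq window, and SLCO2A1 was the exception.

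Among the arrays, replicates 3 and 4 of seminal plasma differed most from the rest. Only 8.01% and 12.8% of their probe sets had a signal below 16, the floor used here, against 16.3% to 20.2% on the other 10 arrays, and their median signals were 177.6 and 131.5, against 88.1 to 107.1. Values with seminal plasma are therefore also given without them, which leaves 2 arrays in that group, where this moved a value or a call. The epithelial label held: each of 13 squamous markers had a mean of at least 1000 in every group except KRT13 with TGFB3. The summed signal of the squamous list was 359071 to 548178 with seminal plasma, 246398 to 351086 with TGFB3 and 223933 to 350654 in the controls. A few bright genes carried the sum with seminal plasma, such as SFN and KRT14: 8 of the 13 markers lay below the controls there, with a median log2 fold change of -0.23, and 0.35 when replicates 3 and 4 were left out.

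Signals are linear and have no unit, and fold changes are differences of mean log2 signals after values under 16 were set to 16. The standard errors and 95% intervals come from limma, with 1 estimate of the spread per probe set over all 12 arrays. A probe set passed when its limma p-value, adjusted by Benjamini and Hochberg over all probe sets, was under 0.05, and a gene was read by its probe set with the highest mean signal. No array was rescaled, and the median log2 fold change of all probe sets with seminal plasma was 0.20. Median centring of the arrays moved it to -0.19. Differences under 0.20, and rises up to the size of that whole shift, have no settled sign in that comparison. Both treatments are set against the same 4 controls, so their values share that error. A lower signal in a culture can reflect fewer cells with the transcript or less of it in each cell, and the arrays cannot tell these apart.

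With seminal plasma, PTGS2 rose and the other 9 genes did not pass, that is 1 of 10, where 3.25% of all genes were called, and 1.06% in the fit without seminal plasma replicates 3 and 4, in which PTGS2 was again the 1 member called. Of the 22 probe sets, 2 passed, both of PTGS2, where 2.94% of all probe sets did. With TGFB3, limma called 0 of 10 genes and 0 of 22 probe sets, where 0.294% of genes and 0.190% of probe sets were called, and 0 of 10 without those arrays, where 0.766% of genes were. At an unadjusted limma p under 0.05, 2 of 10 were found with seminal plasma (26.8% of all genes) and 5 of 10 with TGFB3 (9.78% of all genes). The median log2 fold change of the 10 was -0.14 with seminal plasma, beside 0.11 over all genes (0.09, beside 0.01, without replicates 3 and 4), and -0.45 with TGFB3, beside -0.01 over all genes. The members were chosen with results of these data known, so these counts describe the genes and test nothing about the set.

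**Figure D1:**
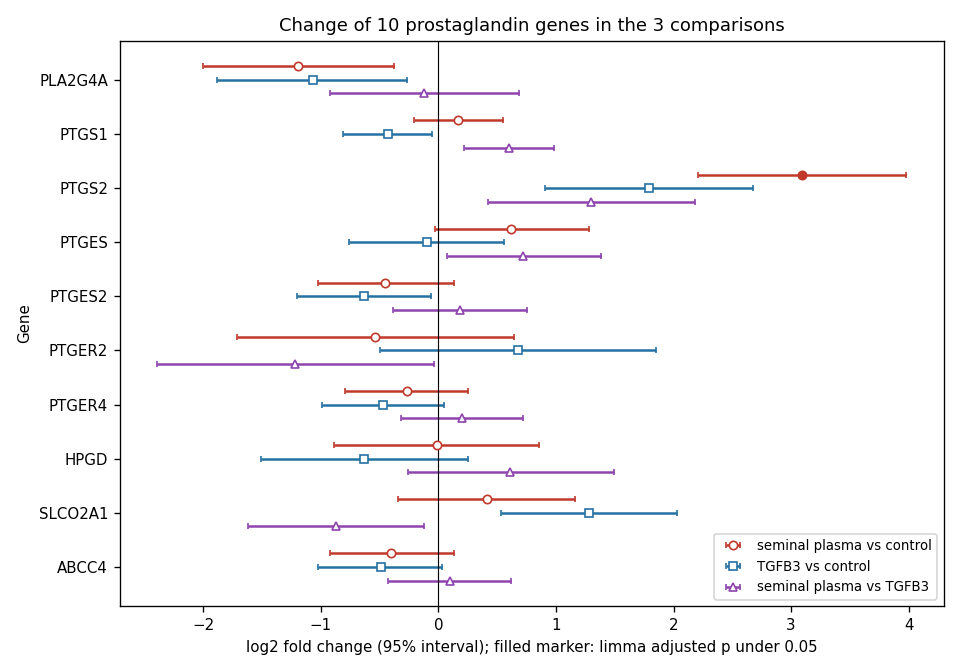
log2 fold change of the 10 genes (rows) in the 3 comparisons, with 95% intervals from limma, where a filled marker is an adjusted p under 0.05. The 1 filled marker is PTGS2 with seminal plasma at 3.09, and the lowest values against control are those of PLA2G4A at -1.19 and -1.07.

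PTGS2 encodes the inducible cyclooxygenase, the step that most often sets how much prostaglandin a stimulated epithelium makes. Its signal on probe set 204748_at was 4721.1, 1918.8, 1838.2 and 3982.1 with seminal plasma, 1455.4, 1470.0, 1463.3 and 575.3 with TGFB3, and 321.1, 453.8, 264.5 and 324.6 in control replicates 1 to 4. The 3 groups did not overlap: every seminal plasma array lay above every TGFB3 array, and every TGFB3 array above every control. TGFB3 replicate 4 was the lowest of its group by a wide gap.

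The means were 3115 ± 1460 with seminal plasma, 1241 ± 444 with TGFB3 and 341 ± 80.1 in the controls (SD, n = 4 each). The rise with seminal plasma was 8.53-fold, or 3.09 ± 0.40 on the log2 scale (SE; 95% interval 2.21 to 3.98; limma adjusted p 0.00691). It was the 27th largest of 19706 genes and passed in 12 of 12 limma fits that left out 1 array (adjusted p 0.00314 to 0.0309). Without seminal plasma replicates 3 and 4 it was 3.17 ± 0.49 (limma adjusted p 0.0339), so the change was as large without the arrays that stood apart.

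With TGFB3, PTGS2 was 3.46-fold higher, or 1.79 ± 0.40 on the log2 scale (95% interval 0.91 to 2.68), the 81st largest of 19706 genes, and did not pass (limma adjusted p 0.156). It passed where limma's variance was allowed to follow intensity with robust fitting (adjusted p 0.0399) and where arrays were weighted (0.013), and in 0 of 12 fits that left out 1 array (0.0727 to 0.447). In the authors' deposited table it was called for both treatments, with folds of 9.14 for seminal plasma and 3.64 for TGFB3. Set directly against TGFB3, seminal plasma gave 2.46-fold more PTGS2 signal (1.30 ± 0.40 on the log2 scale, 95% interval 0.42 to 2.18), which did not pass (limma adjusted p 0.107) and passed without seminal plasma replicate 2 (0.0471).

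The second PTGS2 probe set, 1554997_a_at, gave dimmer signals in the same order of groups. They were 768.0, 470.0, 751.1 and 1387.2 with seminal plasma, 532.6, 484.3, 470.5 and 169.5 with TGFB3, and 161.3, 135.6, 76.5 and 82.6 in the controls. Here the TGFB3 and seminal plasma arrays overlapped, since seminal plasma replicate 2 lay among the TGFB3 values, and both groups lay above every control. The log2 fold change was 2.85 ± 0.44 with seminal plasma (limma adjusted p 0.0138; 2.47 ± 0.52 and 0.0807 without replicates 3 and 4) and 1.80 ± 0.44 with TGFB3 (0.205).

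**Figure D2:**
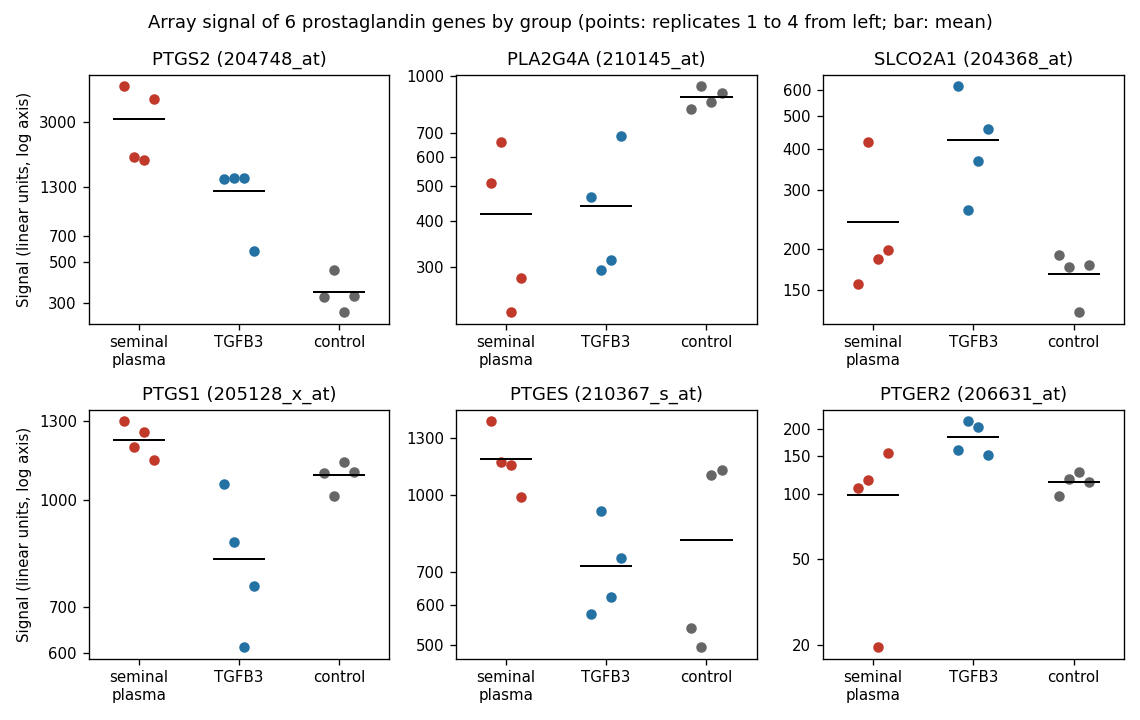
Signal (log axis) of 6 of the genes on each array, with seminal plasma, TGFB3 and control from left to right, replicates 1 to 4 in order within a group and a bar at the arithmetic mean. PTGS2 separates all 3 groups, PLA2G4A is below the controls on all 8 treated arrays, and SLCO2A1 is highest in the TGFB3 group.

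PTGS1, the constitutive cyclooxygenase, is read by 4 probe sets that differed. On the brightest, 205128_x_at, its signal was 1299.9, 1191.9, 1253.4 and 1140.5 with seminal plasma, 1054.0, 870.2, 612.6 and 749.9 with TGFB3, and 1092.8, 1014.3, 1135.0 and 1098.3 in the controls. The seminal plasma arrays all lay above the controls, by a narrow margin (with median centring the log2 fold change was -0.22), and all above the TGFB3 arrays. Its log2 fold change was 0.17 ± 0.17 with seminal plasma (95% interval -0.21 to 0.55; limma adjusted p 0.557) and -0.43 ± 0.17 with TGFB3 (95% interval -0.81 to -0.05; limma adjusted p 0.575). The difference between seminal plasma and TGFB3 was 0.60 ± 0.17 (limma adjusted p 0.0935).

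A second bright PTGS1 probe set, 215813_s_at, had 911.6, 716.5, 800.0 and 795.5 with TGFB3, against 1132.2, 1123.8, 1147.6 and 1294.5 in the controls. Every TGFB3 array lay below every control, and the log2 fold change of -0.55 ± 0.18 did not pass (limma adjusted p 0.413). With seminal plasma the same probe set gave -0.14 ± 0.18, and 0.14 ± 0.12 without replicates 3 and 4. On the dimmer 205127_at and 238669_at the seminal plasma values were -0.98 ± 0.75 and -1.14 ± 0.75, where replicate 4 was far below the rest, and without replicates 3 and 4 they were -0.21 ± 0.68 and -0.24 ± 0.26.

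PLA2G4A encodes the cytosolic phospholipase A2 that frees arachidonic acid, the substrate of both cyclooxygenases. Its signal was 510.7, 661.4, 225.1 and 280.2 with seminal plasma, 465.2, 294.2, 312.5 and 687.0 with TGFB3, and 811.0, 938.2, 846.5 and 897.9 in the controls. All 8 treated arrays lay below all 4 controls, while the treated groups overlapped. The controls kept within a narrow range (873 ± 56.0, SD, n = 4), and the treated arrays spread more widely (419 ± 203 with seminal plasma and 440 ± 182 with TGFB3, SD, n = 4 each).

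The log2 fold change of PLA2G4A was -1.19 ± 0.36 with seminal plasma (95% interval -2.00 to -0.38; limma adjusted p 0.0878) and -1.07 ± 0.36 with TGFB3 (95% interval -1.88 to -0.27; limma adjusted p 0.437), and neither passed. The value with seminal plasma passed with variance following intensity (adjusted p 0.0476) and without seminal plasma replicate 2 (-1.45, adjusted p 0.0226). Without seminal plasma replicates 3 and 4, the lowest of that group, it was -0.59 ± 0.32 (limma adjusted p 0.444). In the authors' deposited table PLA2G4A had folds of -2.08 for seminal plasma, which was called, and -1.99 for TGFB3, which was not.

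PTGES, the inducible microsomal prostaglandin E synthase that often works beside PTGS2, had probe sets of opposite sign. On 210367_s_at the signals were 1403.9, 1159.7, 1148.3 and 989.1 with seminal plasma, 575.9, 927.3, 624.9 and 745.6 with TGFB3, and 539.4, 494.8, 1094.8 and 1121.5 in the controls. Control replicates 3 and 4 reached the seminal plasma range and control replicates 1 and 2 did not, while every seminal plasma array lay above every TGFB3 array. This came to a log2 fold change of 0.62 ± 0.30 with seminal plasma (limma adjusted p 0.222; 0.75 ± 0.38 without replicates 3 and 4) and -0.10 ± 0.30 with TGFB3 (limma adjusted p 1).

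On the other PTGES probe set, 207388_s_at, the values were -0.63 ± 0.28 (limma adjusted p 0.199) and 0.10 ± 0.28 (limma adjusted p 1) on the log2 scale. The 2 probe sets thus gave differences of like size and opposite sign with either treatment, and the mean of both was -0.00 with seminal plasma. PTGES2, a second membrane-associated E synthase, is read by 1 probe set. It had 518.0, 848.4, 953.2 and 755.2 with TGFB3, against 1237.3, 946.6, 1366.4 and 1126.5 in the controls, and 1 TGFB3 array exceeded the lowest control. The log2 fold change was -0.63 ± 0.26 with TGFB3 (limma adjusted p 0.596) and -0.45 ± 0.26 with seminal plasma (limma adjusted p 0.306; -0.53 ± 0.31 without replicates 3 and 4).

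PTGER2 and PTGER4 encode the EP2 and EP4 receptors, through which prostaglandin E2 raises cAMP. PTGER2 was dim: 106.9, 116.0, 19.5 and 154.6 with seminal plasma, 160.9, 218.5, 204.2 and 151.2 with TGFB3, and 98.5, 117.6, 126.0 and 113.8 in the controls. Every TGFB3 array lay above every control, and seminal plasma replicate 3 lay far below all other arrays. The log2 fold change with TGFB3 was 0.68 ± 0.53 (limma adjusted p 0.924), and 0.68 ± 0.14 (0.102) in the fit without seminal plasma replicates 3 and 4. With seminal plasma it was -0.54 ± 0.53 (limma adjusted p 0.546), and 0.13 without replicate 3.

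PTGER4 had 691.2, 602.2, 628.4 and 895.2 with seminal plasma, 530.9, 720.1, 768.9 and 457.6 with TGFB3, and 681.5, 698.0, 986.6 and 1053.5 in the controls on 204897_at. The 3 groups overlapped. The log2 fold changes were -0.27 ± 0.23 with seminal plasma (limma adjusted p 0.491; -0.38 ± 0.27 without replicates 3 and 4) and -0.47 ± 0.23 with TGFB3 (0.725). Its second probe set, 204896_s_at, was near the floor, with means of 35.0, 33.0 and 22.2 in the seminal plasma, TGFB3 and control groups, and gave 0.52 ± 0.29 and 0.54 ± 0.29 for the treatments. Without seminal plasma replicates 3 and 4 the value of that probe set with seminal plasma was 0.13 ± 0.22.

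HPGD encodes 15-hydroxyprostaglandin dehydrogenase, which inactivates prostaglandin E2. On 203914_x_at its signals were 211.8, 355.6, 146.0 and 84.1 with seminal plasma, 94.0, 106.5, 146.3 and 114.9 with TGFB3, and 118.6, 186.9, 249.5 and 173.7 in the controls. The groups overlapped, and seminal plasma spanned the widest range. Relative to the controls, the log2 value was -0.01 ± 0.40 with seminal plasma (95% interval -0.89 to 0.86; limma adjusted p 0.997) and -0.63 ± 0.40 with TGFB3 (95% interval -1.51 to 0.25; limma adjusted p 0.845).

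The 4 HPGD probe sets had TGFB3 values of -0.63, -0.59, -0.62 and -0.10 on the log2 scale. With seminal plasma they disagreed: 211549_s_at had 112.2, 104.4, 176.2 and 122.7 with seminal plasma, against 80.5, 95.3, 54.1 and 58.8 in the controls, without overlap, or 0.84 ± 0.29 on the log2 scale (limma adjusted p 0.112), while 203913_s_at and 211548_s_at gave -0.58 ± 0.49 and -0.42 ± 0.63. Those negative values rested on seminal plasma replicates 3 and 4, and without them the 2 probe sets gave 0.22 ± 0.29 and 0.66 ± 0.24, and 203914_x_at gave 0.64 ± 0.33 (limma adjusted p 0.404).

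**Figure D3:**
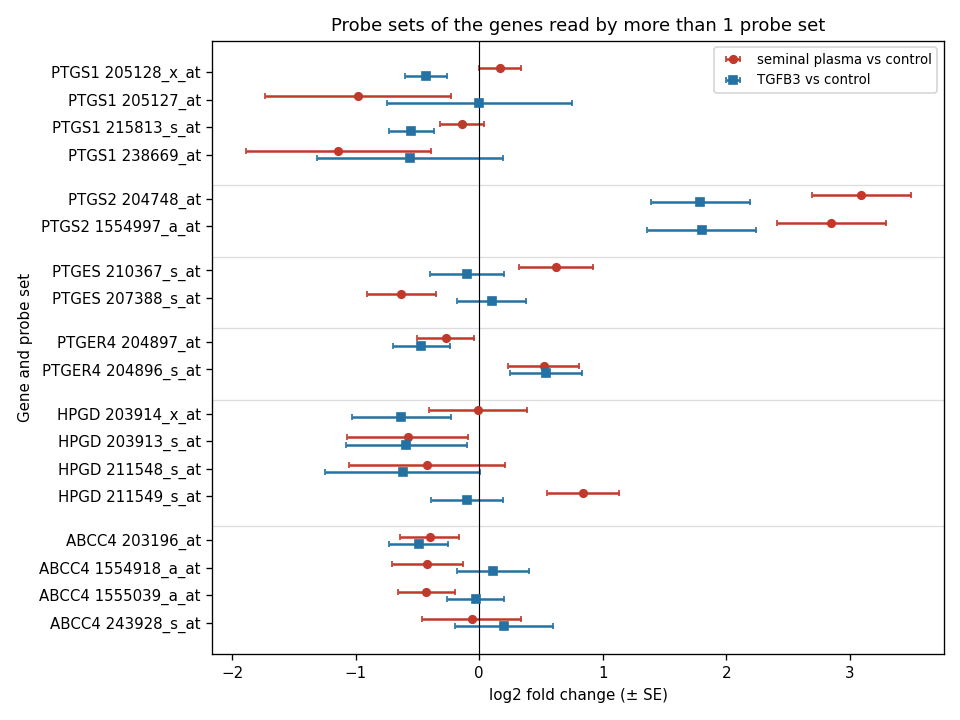
log2 fold change ± SE for each probe set of the 6 genes that had more than 1, with seminal plasma and TGFB3 against control. Both PTGS2 probe sets lie to the right for both treatments, while those of PTGES lie on opposite sides of 0 with seminal plasma and those of PTGER4 on opposite sides with both treatments.

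SLCO2A1, the prostaglandin transporter that carries prostaglandins into cells, had 157.0, 419.6, 186.2 and 198.2 with seminal plasma, 616.1, 262.5, 366.9 and 457.2 with TGFB3, and 191.2, 176.2, 128.9 and 178.4 in the controls. All TGFB3 arrays lay above all controls, and seminal plasma replicate 2 stood above the rest of its group. The log2 fold change with TGFB3 was 1.28 ± 0.34 (95% interval 0.53 to 2.03), or 2.43-fold, the 305th largest of 19706 genes, and did not pass (limma adjusted p 0.248, and 0.0381 with weighted arrays). The authors' deposited table called it for TGFB3, with a fold of 2.52.

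With seminal plasma, SLCO2A1 gave 0.41 ± 0.34 (95% interval -0.34 to 1.16; limma adjusted p 0.467), or 0.62 ± 0.44 when its replicates 3 and 4 were left out. Seminal plasma against TGFB3 gave -0.87 ± 0.34 (limma adjusted p 0.169), and -1.18 (0.0276) without seminal plasma replicate 2. ABCC4, an efflux pump that exports prostaglandin E2, had on 203196_at 461.4, 372.9, 262.6 and 228.4 with seminal plasma, 392.2, 273.8, 283.1 and 260.8 with TGFB3, and 459.7, 470.1, 382.3 and 376.4 in the controls. The groups overlapped, with log2 fold changes of -0.40 ± 0.24 with seminal plasma (limma adjusted p 0.32) and -0.49 ± 0.24 with TGFB3 (0.705). Its other 3 probe sets gave -0.42, -0.43 and -0.06 with seminal plasma and 0.11, -0.03 and 0.20 with TGFB3. Without seminal plasma replicates 3 and 4, ABCC4 on 203196_at was -0.02 ± 0.19, and with array weights -0.08. On that probe set the lower value with seminal plasma was thus not seen on the other arrays. Without the same replicates the other 3 probe sets gave -0.38 ± 0.38, -0.25 ± 0.27 and -0.35 ± 0.45.

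The direct comparison asks whether seminal plasma differed from TGFB3 alone. Limma called 0 of the 10 genes there, where 1.96% of all genes and 1.73% of all probe sets were called, and 0 of 10 without seminal plasma replicates 3 and 4, where 0.721% were. Of the 10, 5 had an unadjusted p under 0.05, where 24.0% of all genes did. PTGS1, PTGS2 and PTGES had all 4 seminal plasma arrays above all 4 TGFB3 arrays, 3 of 10 genes, where 11.4% of all genes were separated in either direction. No other probe set of these genes separated the treatments. PTGES gave 0.72 ± 0.30 on 210367_s_at (limma adjusted p 0.187) and -0.73 ± 0.28 on 207388_s_at (0.168). Separation from the controls was seen for 3 of 10 genes with seminal plasma (PTGS1, PTGS2 and PLA2G4A; 15.9% of all genes) and for 4 of 10 with TGFB3 (PTGS2, PTGER2, SLCO2A1 and PLA2G4A; 11.1% of all genes). That of PTGS1 with seminal plasma was absent on its other probe sets.

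A wider list of 41 genes of prostaglandin synthesis, reception, breakdown and transport, the 10 included, had 38 measured. With seminal plasma 1 rose, 1 fell and 36 did not pass, where 3.25% of all genes were called, and 8 had an unadjusted limma p under 0.05, where 26.8% of all genes did. The median log2 fold change was 0.07, beside 0.11 over all genes. The gene that fell was CBR1, a carbonyl reductase that can turn prostaglandin E2 into F2 alpha, with 1910.2, 3290.2, 939.3 and 1517.0 with seminal plasma, against 7163.3, 4931.7, 7149.3 and 6551.0 in the controls. These groups did not overlap, and the log2 fold change was -1.88 ± 0.38 (limma adjusted p 0.0313). It was -1.35 ± 0.36 (limma adjusted p 0.143) when replicates 3 and 4 of seminal plasma were left out. The TGFB3 arrays of CBR1, 4300.3, 2098.5, 2206.1 and 3863.6, also lay below every control. That difference, -1.11 ± 0.38, did not pass (limma adjusted p 0.437), nor did the one between the treatments (-0.78 ± 0.38, limma adjusted p 0.251). With TGFB3 limma called 0 of the 38, where 0.294% of all genes were called, 9 had an unadjusted p under 0.05, where 9.78% of all genes did, and the median was -0.09, beside -0.01 over all genes.

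By role, the 10 measured phospholipases had a median log2 fold change of 0.85 with seminal plasma and -0.23 with TGFB3, with 0 passing for either, and 3 and 1 at an unadjusted limma p under 0.05. Without seminal plasma replicates 3 and 4 the first median was 0.18, with 6 of 10 above 0, so most of its size lay in those 2 arrays. The 10 genes of the receptor group, which includes PTGFRN, a receptor regulator, had a median of -0.25 with seminal plasma and 0.14 with TGFB3. For the 9 other synthesis enzymes it was 0.15 with seminal plasma and -0.10 with TGFB3. The 5 genes of breakdown had -0.24 with seminal plasma and -0.58 with TGFB3. All 5 lay below 0 with TGFB3, but PTGR1 at -0.05 ± 0.22 was too near 0 to have a sign, and PTGR2 gave -0.22 ± 0.27. With seminal plasma HPGD at -0.01 and CBR3 at -0.08 were too near 0 to have a sign, and 2 of 5 lay above 0 without replicates 3 and 4. Without those arrays the seminal plasma medians were -0.02 for the receptor group, -0.05 for synthesis enzymes and -0.08 for breakdown.

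**Figure D4:**
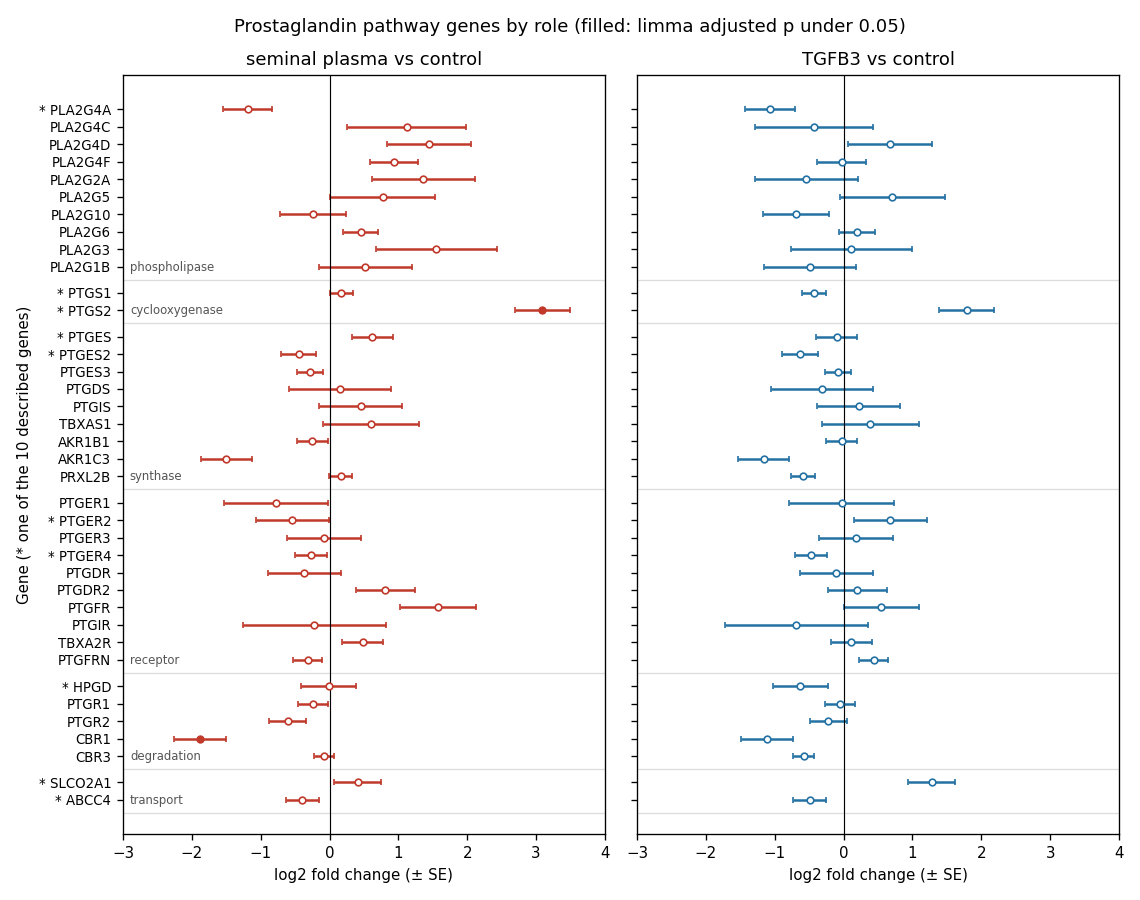
log2 fold change ± SE of the 38 measured genes of the wider list, grouped by role, with seminal plasma (left) and TGFB3 (right) against control. PTGS2 at 3.09 and CBR1 at -1.88 are the filled points, both with seminal plasma, and no TGFB3 point is filled.

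Of 17 proteins known to act on PTGS2 transcription or its messenger RNA, 1 passed with seminal plasma (3.25% of all genes) and 0 with TGFB3 (0.294%). At an unadjusted limma p under 0.05 there were 6 with seminal plasma (26.8% of all genes) and 4 with TGFB3 (9.78%). The gene that passed was ZFP36L1, an RNA-binding protein that speeds the decay of messenger RNAs with AU-rich elements. Its signal was 15417.4, 6381.3, 18009.5 and 24851.2 with seminal plasma, 4954.6, 7806.2, 8032.6 and 7517.1 with TGFB3, and 2193.0, 3048.8, 2750.2 and 2646.1 in the controls. Both treated groups lay above every control. Relative to the controls, the log2 value was 2.46 ± 0.36 with seminal plasma (limma adjusted p 0.0125; 1.91 ± 0.35 and 0.0529 when replicates 3 and 4 were left out) and 1.40 ± 0.36 with TGFB3 (0.241).

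The genes whose log2 signal most resembled that of PTGS2 over the 12 arrays were TMEM200A and STK17A (Pearson r 0.96 for both), SOCS2 and JRKL (0.95 for both) and PTHLH (0.94), out of 14739 genes with a mean signal of at least 64. These correlations span 3 treatments and describe that shared order more than any variation within a group. PTHLH, parathyroid hormone-like hormone, had 10802.8, 7409.1, 8724.2 and 10889.5 with seminal plasma, 6165.8, 4855.5, 5131.5 and 4363.8 with TGFB3, and 1181.2, 1168.0, 1333.6 and 1558.7 in the controls. Its 3 groups did not overlap, and it passed with seminal plasma (2.84 ± 0.18, limma adjusted p 0.000149), with TGFB3 (1.97 ± 0.18, 0.00225) and between them (0.88 ± 0.18, 0.0458; 0.131 without seminal plasma replicates 3 and 4). The other 4 passed with seminal plasma and not with TGFB3 (limma adjusted p 0.34 for TMEM200A, 0.283 for STK17A, 0.185 for SOCS2 and 0.618 for JRKL) or between the treatments. Without seminal plasma replicates 3 and 4, SOCS2 still passed with seminal plasma (limma adjusted p 0.0318). TMEM200A (0.0728), STK17A (0.0525) and JRKL (0.123) did not.

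Seminal plasma may carry RNA and cells of its donors, so markers of other cells were set beside the PTGS2 result. The summed signal of 8 sperm and testis markers was 524 to 1310 with seminal plasma, 380 to 555 with TGFB3 and 400 to 519 in the controls, and that of 8 prostate and seminal vesicle markers was 1413 to 2135, 962 to 1486 and 1036 to 1413. PRM2 was below 16 on every array, and none of the 16 markers passed. SEMG1 was below 16 on all TGFB3 and control arrays, and 54.0 and 19.5 on seminal plasma replicates 1 and 2. PRM1 (1.62 ± 0.61) and MSMB (1.38 ± 0.56) had all 4 seminal plasma arrays above all 4 controls. With seminal plasma 7 of 8 prostate and seminal vesicle markers lay above 0, with a median log2 fold change of 0.58. For sperm and testis markers it was 4 of 8 and 0.09, beside a median of 0.11 over all genes. For 8 measured leukocyte markers the sums were 578 to 1367, 1004 to 1217 and 1194 to 1469, and for 8 fibroblast markers 1422 to 2232, 2596 to 4040 and 1277 to 2984. For 9 columnar markers, led by KRT18 and KRT8, they were 40642 to 51615, 25538 to 34618 and 25919 to 31949. KRT18, a keratin of simple epithelia, rose with seminal plasma (0.86 ± 0.18, limma adjusted p 0.0392) and was higher than with TGFB3 (0.87 ± 0.18, 0.0467), calls that were lost without replicates 3 and 4 (0.72 ± 0.20 for both; 0.151 and 0.163). CSF1R, a receptor of macrophages, was lower with seminal plasma than with TGFB3 (-1.59 ± 0.25, limma adjusted p 0.0234; -1.21 ± 0.22 and 0.0576 without replicates 3 and 4). The leukocyte markers had no common direction in that comparison: 4 of 8 lay above 0, with a median log2 fold change of 0.16. CD14 was 0.84 ± 0.55 there (limma adjusted p 0.391). Without replicates 3 and 4 CD14 passed as higher with seminal plasma than with TGFB3 (1.68 ± 0.22, limma adjusted p 0.0227). In that fit CD14 was lower with TGFB3 than in the controls (-1.90 ± 0.18, limma adjusted p 0.00642). Against the controls it was -0.22 ± 0.22 with seminal plasma (limma adjusted p 0.7). Over all arrays the CD14 means were 424 with seminal plasma, 184 with TGFB3 and 688 in the controls. The part of donor RNA in the rise of PTGS2 was not tested.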

How the data were processed

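RNA of 12 Ect1 cultures was read on Affymetrix arrays. The value table deposited by the authors holds 1 linear intensity per probe set and array. Tools named in the submitters' processing notes, without their roles, include MAS5 and RMA, Partek, R 2.6.1 and GCOS 1.4. The 2% trimmed mean lay between 493.3 and 498.4 on every array. A second deposited table repeats these values and adds the authors' signed fold score and call, by a test whose name the sources used here do not give. The labels and the design text differ on the labelling kit. Genome build: not given in the sources used here.

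Signals were floored at 16 and put on the log2 scale, with no further scaling. Comparisons between groups were tested in limma 3.58.1 under R 4.3.3, with lmFit and eBayes, 1 mean per group over all 12 arrays and Benjamini-Hochberg adjustment over 54613 probe sets. The fit was tested on simulated data. Symbols are those of the deposited table, with older ones updated through RefSeq. All 10 genes were named whatever their values. Of the lists, genes that passed in any comparison were named, plus the 5 most like PTGS2. ALOX5AP, AKR1C3, and the markers and breakdown genes given with values, were named after their values were seen. The genes and lists were chosen with earlier results of these data known. PLA2G4B, PLA2G4E, HPGDS, CD68 and FCGR3A had no probe set with that single symbol. The alternatives are given in the closing section. Python 3.11.15 and matplotlib 3.10.9 made the figures.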

Additional observations from a re-analysis of the deposited data

Results flagged for a closer look

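Within each group of 4 arrays, the highest or lowest array of a probe set was set against Dixon's 95% critical value. Of 63 groups checked, 6 passed it, and chance gives about 1 in 20. The other 3 groups had 2 or more arrays below the floor of 16, where values have no order. TGFB3 replicate 4 accounted for 3: it was low for PTGS2 on both probe sets, at 575.3 on 204748_at and 169.5 on 1554997_a_at, and low for ABCC4 on 1555039_a_at, at 108.6. Without it the PTGS2 log2 fold change with TGFB3 was 2.13 (limma adjusted p 0.0727).

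Seminal plasma replicate 4 was low for PTGS1 on 238669_at, at 37.8. Among the controls, replicate 4 was high for PTGS1 on 215813_s_at, at 1294.5, and replicate 1 was low for HPGD on 203913_s_at, at 100.1.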

How the results depend on the processing

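The rise of PTGS2 with seminal plasma kept its direction and its call under all 23 alternatives run, with log2 fold changes of 2.71 to 3.41. Of 690 values of the 30 member fold changes, 654 kept direction and side of the threshold, 8 newly passed, and 28 changed sign, none of the 28 past the threshold. Variance following intensity with robust fitting gave 2 genes with seminal plasma and 1 gene and 1 probe set with TGFB3. Over the array that setting called 3666 of 54613 probe sets with seminal plasma, against 1608, and 228 with TGFB3, against 104. Array weights gave 3 genes and 5 probe sets with TGFB3. Of 2 probe sets called with seminal plasma, both of PTGS2, 1 remained without seminal plasma replicates 3 and 4. Leaving out 1 array gave 1 to 2 genes and 1 to 3 probe sets with seminal plasma, 0 to 0 of each with TGFB3, and 0 to 2 of each for seminal plasma against TGFB3. Seminal plasma replicate 2 decided the highest counts: without it 8900 probe sets were called over the array, against 1608. Over all settings the calls among all probe sets were 197 (each comparison fitted on its own 2 groups) to 8900 with seminal plasma, 21 (replicate block) to 1771 (array weights) with TGFB3, against 104, and 12 (2 groups) to 7055 (without seminal plasma replicate 2) for seminal plasma against TGFB3, against 945. Median centring gave 299 higher and 488 lower with seminal plasma, against 948 and 660.

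With the replicate block, 1 gene (PTGS2, adjusted p 0.0419) and 1 probe set passed with seminal plasma and 0 in the other comparisons. Over the array the block called 307 of 54613 probe sets with seminal plasma, 21 with TGFB3 and 47 between the treatments. The numbers name no shared batch, 2 of 12 same-numbered pairs correlated above 0.1 (-0.12 to 0.20), and 4 of 12 arrays matched best with their own number.

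Scaling moved the median log2 fold change over all probe sets with seminal plasma, 0.20 as reported, to 0.01 (quantile) and -0.19 (median centring). Median centring turned PTGS1 with seminal plasma to -0.22, and against TGFB3 turned PTGES2 to -0.14, PTGER4 to -0.12 and ABCC4 to -0.23 (-0.09 with quantile normalization). The mean of probe sets turned PTGS1 to -0.52, PTGES to -0.00 and PTGER4 to 0.13 with seminal plasma, PTGER4 to 0.04 with TGFB3, and PTGS1 to -0.14, PTGES to -0.00 and ABCC4 to -0.28 for seminal plasma against TGFB3. Array weights turned HPGD to 0.14 with seminal plasma, and PTGES2 to -0.05 and PLA2G4A to 0.28 against TGFB3. Without seminal plasma replicates 3 and 4, HPGD was 0.64 with seminal plasma and PLA2G4A 0.49 against TGFB3. Leaving out 1 array gave -0.87 to 0.13 for PTGER2 and -0.36 to 0.34 for HPGD with seminal plasma, -0.30 to 0.09 for PTGES with TGFB3, and -0.38 to 0.14 for PLA2G4A and -0.08 to 0.26 for ABCC4 against TGFB3. The cause of these turns was not tested. The values of gene lists without seminal plasma replicates 3 and 4 were chosen after seeing the data; in that fit JUN, of the PTGS2 regulators, passed with TGFB3 (2.36, adjusted p 0.0265, against 0.0769). With 4 arrays a group, precision is limited.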

Other observations

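Arachidonic acid also feeds lipoxygenases, which make leukotrienes and hydroxylated fatty acids. Of 16 measured genes of that branch, 2 fell with seminal plasma, none rose and 14 did not pass (3.25% of all genes were called), with a median log2 fold change of 0.08, beside 0.11 over all genes. At an unadjusted limma p under 0.05 there were 5 with seminal plasma, where 26.8% of all genes were. With TGFB3 limma called 0 of 16, and 5 had an unadjusted p under 0.05, where 9.78% of all genes did. EPHX2, a soluble epoxide hydrolase, had 30.4, 8.2, 16.5 and 9.4 with seminal plasma, against 155.6, 74.7, 81.0 and 76.0 in the controls. ALOX12B, an epidermal lipoxygenase of the skin barrier, had 9.0, 5.6, 35.6 and 18.4 with seminal plasma, 27.2, 8.5, 18.0 and 16.7 with TGFB3, and 90.8, 112.6, 49.9 and 49.1 in the controls. Neither gene's treated arrays overlapped the controls, and 2 seminal plasma arrays of each lay below the floor, so their log2 fold changes of -2.28 ± 0.45 for EPHX2 (limma adjusted p 0.0294) and -1.81 ± 0.35 for ALOX12B (0.0292) are understated. Without seminal plasma replicates 3 and 4 they were -2.06 ± 0.60 for EPHX2 (limma adjusted p 0.169) and -2.14 ± 0.38 for ALOX12B (0.0476). In that fit the ALOX12B values with seminal plasma, 9.0 and 5.6, were both set to 16. They had no spread for that reason, which the ALOX12B call partly rests on. EPHX2 replicate 2, at 8.2, was also set to 16. With TGFB3, ALOX12B gave -1.89 ± 0.35 (limma adjusted p 0.0807), and passed in the fit without those seminal plasma arrays (0.049), which used the same spread. EPHX2 gave -1.57 ± 0.45 with TGFB3 and did not pass (limma adjusted p 0.312).

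ALOX5AP, the protein that presents arachidonic acid to 5-lipoxygenase, was singled out after its values were seen. It had 116.1, 75.5, 134.3 and 181.3 with seminal plasma, 180.5, 310.7, 226.7 and 204.0 with TGFB3, and 67.4, 45.5, 51.5 and 101.7 in the controls. The TGFB3 arrays all lay above the controls, by 1.83 ± 0.32 on the log2 scale, which did not pass (limma adjusted p 0.0643) but passed in the fit without seminal plasma replicates 3 and 4 (0.0457). AKR1C3, an aldo-keto reductase that makes prostaglandin F2 alpha, was likewise singled out. It had 366.7, 393.5, 342.9 and 358.8 with seminal plasma, against 999.5, 983.4, 1039.0 and 1122.3 in the controls, 4 tightly grouped arrays on each side. Its log2 fold change of -1.50 ± 0.37 did not pass (limma adjusted p 0.0535), nor did -1.45 ± 0.50 without replicates 3 and 4 (0.23). The error is shared with the TGFB3 arrays, which ranged from 225.3 to 945.9. Those arrays also lay below every control (-1.16 ± 0.37, limma adjusted p 0.383).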
